A study of Mus musculus with 15 samples.

Results

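The genes described here encode the proteins of the 2 ribosomes of a mouse cell, followed in T cells grown toward a TH17 or a Treg state. Members were taken by symbol from GENCODE M21 protein-coding genes. Symbols that begin with Rpl or Rps and a digit, together with Rpsa, Rplp0, Rplp1 and Rplp2, were the cytosolic set, leaving out the Rps6k kinases, Rps19bp1 and pseudogene names. Symbols that begin with Mrpl or Mrps and a digit were the mitochondrial set. A mean of at least 1 TPM (transcripts scaled to a fixed total per library) over all 15 libraries was required, which kept 161 of the 55421 genes in the table: 83 of 85 cytosolic and 78 of 78 mitochondrial genes. The 2 genes left out were Rpl10l at 0 TPM and Rpl3l at 0.006 TPM, and the member nearest to the limit was Rpl39l at 1.02 TPM.

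The cytosolic ribosome translates nuclear mRNAs, and its proteins are made in near-equal numbers from some of the most abundant mRNAs of a growing cell. Many of these mRNAs start with a terminal oligopyrimidine (TOP) tract, through which mTOR signalling controls their translation, and naive T cells enlarge their ribosome pool when they are activated. The mitochondrial ribosome is encoded by a separate set of nuclear genes and translates the few mRNAs of the mitochondrial genome, all of them for subunits of the oxidative phosphorylation system.

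Naive CD4+ T cells (CD25-, CD62 high, CD44 low) from mouse spleen and lymph nodes were activated on plate-bound anti-CD3 (2 µg/ml) and anti-CD28 (1 µg/ml) and harvested on day 5 for poly(A) RNA sequencing. TH17 cultures received 2.5 ng/ml TGFβ and IL-1β, IL-6 and IL-23 at 10 ng/ml each, Treg cultures TGFβ (0.5 ng/ml or another stated dose) and 200 U/ml IL-2, and anti-IFNγ and anti-IL-4 (1 µg/ml each) were present in each. The study's title concerns T cell receptor signalling, STAT3 phosphorylation and TH17 differentiation. There were 5 groups with 3 libraries each: wild-type TH17 with DMSO, wild-type TH17 with Srci1, STAT3 knockout TH17 with DMSO, wild-type Treg with DMSO and wild-type Treg with Srci1. The labels call the added compound Srci1, give no concentration for it, and state that treatment began 24 h after plating. The knockout (STAT3-fl/fl CD4-cre) loses floxed Stat3 through a Cre recombinase driven by Cd4, which acts in the T cell lineage. Libraries of a group carry only a number, and no label ties them to different animals. The error behind each p-value is the spread between libraries within groups, pooled over the 5 groups, and could be technical alone.

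The targeted gene Stat3 had 121 ± 18.3 TPM (SD, n = 3) in wild-type DMSO TH17 cells and 34.2 ± 3.9 TPM in knockout cells (limma adjusted p = 3.75e-09). Il17a, the defining cytokine of TH17 cells, stood at 1338 ± 51.5 TPM in DMSO TH17 but at 40.4 ± 3.31 TPM with Srci1 and 10.2 ± 1.45 TPM in the knockout. Foxp3, the defining factor of Treg cells, stood at 129.7 ± 2.23 TPM in DMSO Treg, at 204 ± 8.37 and 205 ± 17.6 TPM in Srci1 and knockout TH17 and at 11.7 ± 2.15 TPM in DMSO TH17, so TH17 and Treg name culture conditions here. Summed B cell markers (7 genes) were 13.5 to 14 TPM and summed myeloid markers (7 genes) 13.3 to 14.9 TPM in the knockout, against at most 3.9 and 6.14 TPM in any other library, with the defining genes Pax5 and Csf1r at or below a mean of 0.243 and 0.0133 TPM in every group. Summed red blood cell markers (5 genes) were higher with Srci1 in both types, at 31 to 34.8 TPM in Srci1 Treg against 7.31 to 13.6 TPM in DMSO Treg and at 6.45 to 7.33 TPM in Srci1 TH17 against 0 to 1.02 TPM in DMSO TH17, with 0 to 0.87 TPM in the knockout. Summed CD8 T and NK cell markers (6 genes) were 7.87 to 9.71 TPM in DMSO TH17, 11.1 to 14.9 TPM in Srci1 TH17, 18 to 21.2 TPM in the knockout, 21.1 to 25.1 TPM in DMSO Treg and 8.11 to 8.55 TPM in Srci1 Treg, with Ncr1 at 0 in every group. Members of that list did not move alike. Mean Prf1 was 0.753 TPM in DMSO TH17, 3.29 in Srci1 TH17, 6.28 in the knockout, 15.75 in DMSO Treg and 2.09 in Srci1 Treg. Mean Cd8b1 was 7.23, 7.93, 8.66, 4.33 and 4.79 TPM in the same order. Among red blood cell markers, mean Hba-a1 was 2.17 TPM in DMSO Treg and 20.78 TPM in Srci1 Treg, and Hbb-bt 7.77 and 6.48 TPM. These sums are therefore not a measure of the number of such cells. Replicate 3 of DMSO TH17 stood apart in scale, with a median-of-ratios factor of 0.792 against 0.91 to 1.13 in the other 14 libraries.

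The start regions of 8 members that recur in the results are shown first, each as 25 bases before and 25 bases after the RefSeq start (GRCm38.p6), 5′ to 3′ on the gene's strand. Capitals mark a run of at least 6 pyrimidines that begins with C and overlaps the 5 bases on either side of the start, the kind of sequence a TOP mRNA begins with.
Rps27 (chr3:90213624-90213673, minus strand): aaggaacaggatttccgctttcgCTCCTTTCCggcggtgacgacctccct
Rps27rt (chr9:114982715-114982764, minus strand): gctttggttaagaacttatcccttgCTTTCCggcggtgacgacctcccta
Rpl38 (chr11:114668555-114668604, plus strand): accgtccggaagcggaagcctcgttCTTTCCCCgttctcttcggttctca
Rps6 (chr4:86857343-86857392, minus strand): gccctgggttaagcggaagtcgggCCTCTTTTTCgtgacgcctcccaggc
Rpl36a (chrX:134585629-134585678, plus strand): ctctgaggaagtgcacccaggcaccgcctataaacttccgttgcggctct
Rpl24 (chr16:55966250-55966299, plus strand): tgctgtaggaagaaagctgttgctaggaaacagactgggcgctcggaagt
Mrpl49 (chr19:6057731-6057780, minus strand): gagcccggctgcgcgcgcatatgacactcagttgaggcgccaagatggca
Mrpl27 (chr11:94653766-94653815, plus strand): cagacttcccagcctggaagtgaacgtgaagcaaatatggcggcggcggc
Rps27, Rps27rt, Rpl38 and Rps6 held such a run and the other 4 windows did not. Of the members, 132 had a RefSeq window (63 cytosolic, 69 mitochondrial). The run was found in 31 of 63 cytosolic windows (49.2%) and in 15 of 69 mitochondrial windows (21.7%), against 16.8% of the 8555 protein-coding genes with a mean of at least 1 TPM and 16.1% of all 27025 windows of the same length. The ETS/GABPA letters CCGGAAG, searched on both strands over 250 bases before to 50 bases after the start, were in 39.7% of cytosolic and 34.8% of mitochondrial windows, against 20.6% and 9.16% of these same backgrounds. The E-box CACGTG was in 7.94% and 7.25%, against 10.5% of the windows of expressed protein-coding genes and 7.2% of all windows. These matches describe letters in a window at an annotated start, and not binding or the start of the mRNA in these cells.

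A further set of sequences bears on which members can be measured apart. The first 60 coding bases (GENCODE M21 transcripts) of Rps27, of its copy Rps27rt and of its paralog Rps27l are given below, with capitals at bases unlike Rps27.
Rps27: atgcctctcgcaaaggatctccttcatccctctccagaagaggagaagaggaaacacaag
Rps27rt: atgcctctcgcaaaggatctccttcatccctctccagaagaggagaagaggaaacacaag
Rps27l: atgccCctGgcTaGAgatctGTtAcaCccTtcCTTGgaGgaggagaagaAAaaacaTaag
Rps27 and Rps27rt had identical coding sequences over all 252 bases, so short reads from the coding part do not separate them and their TPM values are uncertain as a split. Rps27l, equally long, was 76.2% identical to Rps27 with no shared stretch above 11 bases. Rpl36a and Rpl36al were 87.7% identical (longest shared stretch 24 bases), Rpl22 and Rpl22l1 67.5% and Rpl7 and Rpl7l1 54.4%. Pseudogenes named after cytosolic ribosomal proteins (307 gene records) held a mean of 0.15 to 0.228% of TPM per group, and reads shared with them may have been split as well.

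Cytosolic ribosomal protein mRNAs were a large part of all TPM, and their share was lower with Srci1 in both cell types. In DMSO TH17 libraries the cytosolic share was 28.2, 30.1 and 32.5%, and in Srci1 TH17 libraries it was 23, 24.3 and 23.8%. In DMSO Treg libraries it was 26.8, 27.1 and 26.6%, and in Srci1 Treg libraries 22.7, 22.5 and 21.7%. The treated libraries were thus lowest in both types without overlap, while the knockout TH17 libraries, at 31.4, 29.4 and 32%, overlapped with wild type. As group means the share was 30.3 ± 2.16% in DMSO TH17, 23.7 ± 0.628% in Srci1 TH17, 30.9 ± 1.37% in the knockout, 26.8 ± 0.218% in DMSO Treg and 22.3 ± 0.529% in Srci1 Treg (SD, n = 3 each). A share summed over chosen genes carries no test here. Libraries of bulk RNA cannot separate fewer cells with much of an mRNA from less of it in each cell.

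The mitochondrial share of all TPM was small and nearly level. It was 0.635 ± 0.0326% in DMSO TH17, 0.64 ± 0.0172% in Srci1 TH17, 0.666 ± 0.029% in the knockout and 0.653 ± 0.00097% in DMSO Treg. In Srci1 Treg it was 0.699 ± 0.00459%, higher than in DMSO Treg without overlap between libraries, while the libraries of the other comparisons with wild-type DMSO TH17 overlapped. TPM values of one library sum to a fixed total, so a lower cytosolic share raises the TPM of other genes. As a share of the TPM outside the cytosolic ribosomal proteins, the mitochondrial set was 0.9 ± 0.012% in Srci1 Treg and 0.892 ± 0.00149% in DMSO Treg, and these libraries overlapped. On the same measure it was 0.839 ± 0.0294% in Srci1 TH17, 0.913 ± 0.0754% in DMSO TH17 and 0.964 ± 0.0597% in the knockout. The Srci1 TH17 libraries overlapped with DMSO TH17 and lay below the knockout without overlap.

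The ratio of the 2 summed sets does not change when all TPM of a library are multiplied by a common factor. It was 47.6 ± 1.02 in DMSO TH17 and 37 ± 0.141 in Srci1 TH17. In Treg it was 41.1 ± 0.391 with DMSO and 31.9 ± 0.553 with Srci1. The Srci1 value was 0.777 times the DMSO value in each cell type, with no overlap between libraries. Knockout TH17 libraries had a ratio of 46.4 ± 0.645 and overlapped with wild type.

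**Figure D1:**
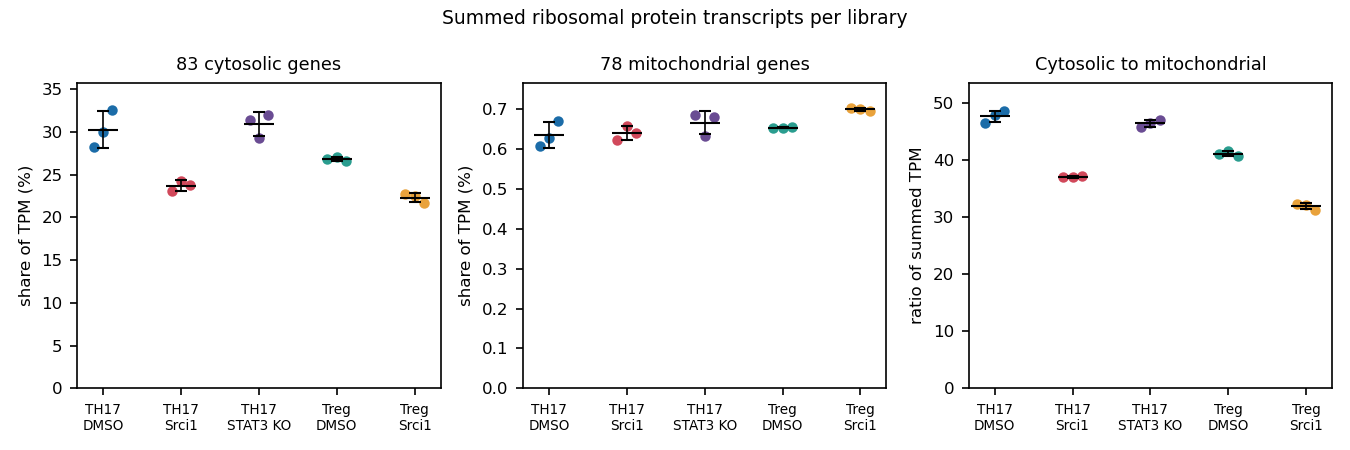
Summed TPM of the 83 cytosolic and 78 mitochondrial ribosomal protein genes as a share of all TPM (percent) and the ratio of the 2 sums, for each library (points), with the group mean (horizontal line) and SD (error bar), n = 3 per group. Srci1 libraries lie below DMSO libraries of the same cell type in the cytosolic share and in the ratio, and the mitochondrial share is nearly level.

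Both subunits of the cytosolic ribosome had lower sums with Srci1. Large-subunit genes of the cytosolic ribosome were 17.3 ± 1.35% of TPM in DMSO TH17 and 13.6 ± 0.482% with Srci1, and small-subunit genes 13 ± 0.81% and 10.1 ± 0.153%. In Treg the large subunit went from 15.2 ± 0.107% to 12.6 ± 0.296% and the small subunit from 11.6 ± 0.118% to 9.76 ± 0.238%. Members differed widely in level: cytosolic means per gene ran from 1.02 TPM (Rpl39l) to 10016 TPM (Rplp1), with a median of 2915 TPM, and mitochondrial means from 14.5 TPM (Mrpl1) to 478.5 TPM (Mrpl52), with a median of 66.7 TPM. The paralogs Rpl7l1, Rpl22l1 and Rps27l were among the lowest cytosolic members after Rpl39l, at means of 116.9, 189.5 and 390.1 TPM. Rps20 lay between them at 316.8 TPM.

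Differences of single genes were tested with limma on log2(TPM + 1) over 12800 genes, those that reached 1 TPM in 3 or more libraries. Calls are at a Benjamini-Hochberg adjusted p under 0.05 over those genes, and fold changes are on that log2 scale. All 161 members passed the filter. The median of all tested genes lay above 0 in every comparison, by 0.21 for Srci1 in TH17, 0.11 for Srci1 in Treg, 0.13 for the knockout, 0.18 for Treg against TH17 and 0.11 for Srci1 TH17 against knockout TH17. Class medians are therefore also given relative to that median. Median-of-ratios scaling, which removes the shift, is given beside the counts. The comparisons of Srci1, knockout and Treg with wild-type DMSO TH17 share the same 3 DMSO libraries.

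With Srci1 in TH17 cells, 62 of 83 cytosolic genes fell and 0 rose (limma), while over all genes tested 7.08% were lower and 33.8% higher. The cytosolic median was -0.31 (quartiles -0.45 and -0.21), which is -0.52 relative to all genes, and 83 of 83 members lay below the all-gene median. Under median-of-ratios scaling, where 16.6% of all genes were called in each direction, 76 fell and 0 rose, and quantile normalization called 33 lower and 2 higher (15.4% and 16.9% of all genes). Both subunits took part, with 39 of 50 large-subunit and 23 of 33 small-subunit genes lower. The red blood cell and the CD8 T and NK marker sums were higher in the Srci1 libraries without overlap, as given above, and their part was not tested.

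Rps27 (chromosome 3, 90212522 to 90213651, minus strand), a zinc-finger protein of the small subunit, had 11719.5, 11693 and 12193 TPM in the DMSO libraries and 7239, 7753 and 7678 TPM with Srci1. Every treated library lay below every control library, and the fold change was -0.65 ± 0.052 (SE, limma adjusted p = 6.42e-07). Its identical-coding copy Rps27rt (chromosome 9, 114982366 to 114982739, minus strand) had 912, 1017 and 1018 TPM with DMSO and 526, 526 and 496 TPM with Srci1, a change of -0.93 ± 0.058 (limma adjusted p = 9.1e-08), with the split between the 2 copies uncertain as above. Rpl36a (chromosome X, 134585654 to 134588062, plus strand), an X-linked large-subunit protein near the exit site for tRNA, went from 3353, 3472 and 3668 TPM to 2285, 2281 and 2218 TPM without overlap (-0.63 ± 0.055, limma adjusted p = 1.56e-06). These 3 were the largest falls of the set, and their calls were kept in every alternative run.

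The stalk of the large subunit, which recruits translation factors, is formed by Rplp0, Rplp1 and Rplp2. Rplp1 fell from 9824, 10624 and 11558 TPM to 8182, 8402 and 8309.5 TPM (-0.36, limma adjusted p = 0.000563). That call was lost under quantile normalization (-0.16, adjusted p = 0.157). Its scaffold Rplp0 was at 5353 ± 425 and 4823 ± 238 TPM (-0.15, limma adjusted p = 0.061), and Rplp2 at 1379.8 ± 162 and 1187 ± 84.4 TPM (-0.21, limma adjusted p = 0.197). Neither of these passed the test. Among large-subunit landmarks, Rpl24, at the bridge between subunits, fell by 0.43 (limma adjusted p = 4.6e-05) and Rpl38, known for its part in translating Hox mRNAs, by 0.51 (limma adjusted p = 0.000349). Rpl5 and Rpl11, which with 5S rRNA form the particle that binds Mdm2, fell by 0.28 and 0.27 (limma adjusted p = 0.00214 and 0.00139), and both calls were lost under quantile normalization (-0.11 and 0.02). In the small subunit, Rps6, the substrate of S6 kinases, fell from 4976 ± 324 to 3918 ± 122 TPM (-0.34, limma adjusted p = 0.000621), again not under quantile normalization (-0.11, adjusted p = 0.0817).

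Paralog pairs were read gene by gene. Rpl22, an RNA-binding large-subunit protein needed for alpha-beta T cell development, fell from 1460.5, 1487 and 1539.5 TPM to 1073, 1031 and 1005 TPM (-0.53 ± 0.065, limma adjusted p = 3.37e-05). Its paralog Rpl22l1 went from 197 ± 8.29 to 168 ± 16.3 TPM (-0.23, limma adjusted p = 0.018), and this call was lost without DMSO replicate 2 or without Srci1 replicate 2 or 3 (adjusted p = 0.0659, 0.0658 and 0.0815) and with only these 2 groups in the model (adjusted p = 0.0771). Rpl7 fell by 0.45 (limma adjusted p = 5.08e-06), while Rpl7l1, its paralog, was at 108 ± 11.3 and 124 ± 3.55 TPM (0.19, limma adjusted p = 0.0958). Rps27l, a p53-responsive paralog of Rps27, was at 415 ± 6.67 and 388 ± 15 TPM (-0.10, limma adjusted p = 0.197) and was not called. These are separate tests, and the difference between paralogs within a pair was not tested.

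Mitochondrial members went both ways with Srci1 in TH17 cells. Of 78 genes, 15 rose and 6 fell (limma), with a median of 0.05, or -0.17 relative to all genes, and the share that rose lay below the 33.8% of all genes. The split depended on scaling, since 1 rose and 16 fell under median-of-ratios scaling, where 16.6% of all genes were called in each direction. Mrpl49 (chromosome 19, 6053622 to 6057785, minus strand), a large-subunit protein, had 27, 26.6 and 25.4 TPM with DMSO and 40.9, 43.4 and 38.8 TPM with Srci1. All treated libraries were above all controls (0.62 ± 0.1, limma adjusted p = 0.000372), and the call was kept in every alternative. Mrpl24 (chromosome 3, 87919506 to 87923672, plus strand), a large-subunit protein, fell from 134, 132 and 126 TPM to 91.7, 94.7 and 104 TPM (-0.43 ± 0.085, limma adjusted p = 0.00146), and Mrpl30 fell by 0.36 (limma adjusted p = 0.000683). Mrpl28 and Mrpl51, also of the large subunit, rose by 0.48 and 0.46 (limma adjusted p = 0.00278 and 0.011), but not under median-of-ratios scaling (0.22 and 0.19, adjusted p = 0.277 and 0.421). Mrpl32, whose maturation is a known control point of the mitochondrial ribosome, fell by 0.47 (limma adjusted p = 0.0153), a call lost without DMSO replicate 1 or Srci1 replicate 2 or 3 (adjusted p = 0.051, 0.058 and 0.0629).

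**Figure D2:**
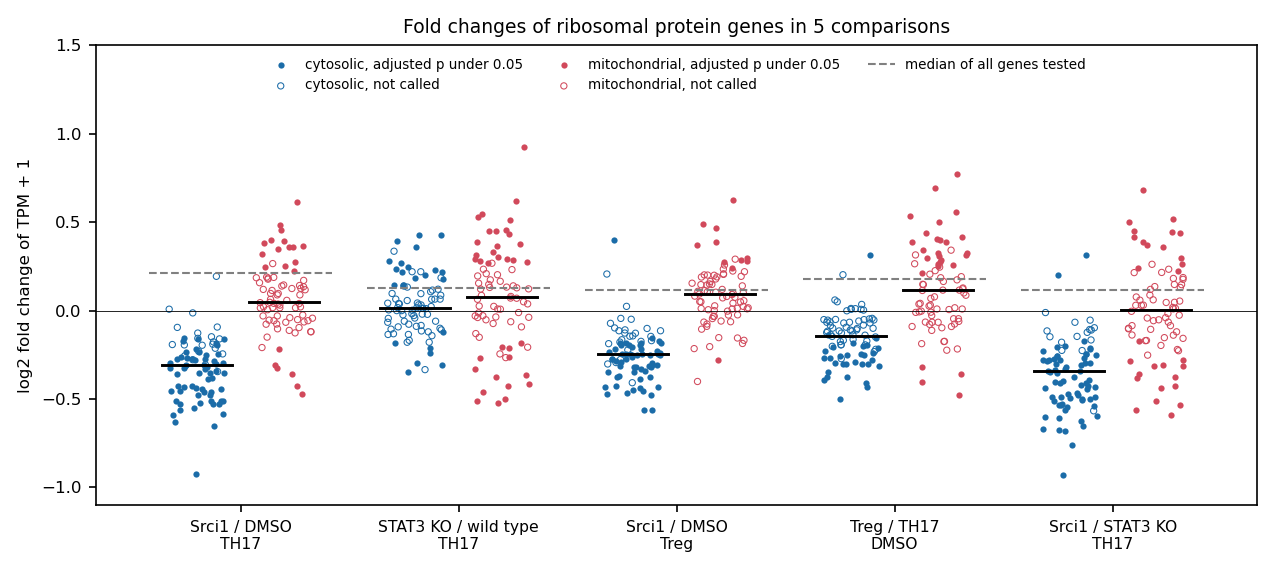
Log2 fold change of TPM + 1 for every cytosolic (blue) and mitochondrial (red) ribosomal protein gene in 5 comparisons; filled points passed an adjusted p of 0.05, black lines are class medians and grey dashed lines the median of all 12800 genes. The cytosolic medians with Srci1 (-0.31 in TH17, -0.25 in Treg) lie below the dashed lines, and the mitochondrial medians lie near 0.

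Other genes of translation were read from lists. Of 20 elongation factors, initiation factors and other genes known for TOP mRNAs, 10 fell and 1 rose with Srci1 in TH17 cells (median -0.15, or -0.37 relative to all genes; 15 and 0 under median-of-ratios scaling). Tpt1, the translationally controlled tumour protein, fell from 5739 ± 233 to 3433 ± 58.5 TPM (-0.74, limma adjusted p = 2.68e-07), Gas5, a non-coding TOP transcript, from 733 ± 86.2 to 466 ± 35 TPM (-0.65, limma adjusted p = 0.000119) and Rack1, a scaffold on the small subunit, by 0.33 (limma adjusted p = 0.00119). Fau, a cytosolic ribosomal protein gene outside the symbol rule, fell by 0.55 (limma adjusted p = 0.00014). Of 40 ribosome biogenesis genes, 12 fell and 2 rose, or 27 and 0 under median-of-ratios scaling. Over all genes tested 7.08% were lower and 33.8% higher with Srci1 in TH17 (limma), or 16.6% in each direction under median-of-ratios scaling. Of 29 genes of mitochondrial translation and ribosome assembly, 6 rose and 1 fell, but 0 rose and 1 fell under median-of-ratios scaling. The share that rose lay below the 33.8% of all genes.

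In Treg cells, Srci1 again went with lower cytosolic ribosomal protein mRNAs. Of 83 genes, 57 fell and 1 rose (limma), against 10% lower and 17.1% higher of all genes tested. The cytosolic median was -0.25 (quartiles -0.32 and -0.18), or -0.36 relative to all genes, and 81 of 83 members lay below the all-gene median. Under median-of-ratios scaling (13.8% of all genes lower, 10.7% higher) 53 fell and 1 rose, and quantile normalization called 35 lower and 1 higher (13.1% and 13.7% of all genes). Large-subunit genes gave 34 of 50 and small-subunit genes 23 of 33 lower calls.

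Rps15a (chromosome 7, 118104372 to 118116188, minus strand), a small-subunit protein, had 4297, 3963 and 3509 TPM in DMSO Treg libraries and 2352, 2943 and 2683 TPM with Srci1. The libraries did not overlap (-0.56 ± 0.12, limma adjusted p = 0.00401). Rps3 (chromosome 7, 99477896 to 99483738, minus strand), at the mRNA entry channel of the small subunit, fell from 2448, 2559.6 and 2232 TPM to 1719, 1723 and 1747 TPM (-0.48 ± 0.084, limma adjusted p = 0.000933). Rps16 fell by 0.56 (limma adjusted p = 0.0106), which was not called without DMSO replicate 1 (-0.47, adjusted p = 0.0508). In the large subunit, Rpl3, a core protein near the peptidyl transferase centre, fell from 2921 ± 40.8 to 2343 ± 109.9 TPM (-0.32, limma adjusted p = 0.000228). Rpl13a, whose protein also leaves the ribosome to silence inflammatory mRNAs, fell from 5352 ± 379 to 3851 ± 188 TPM (-0.47, limma adjusted p = 0.00888), and Rpl38 fell by 0.44 (limma adjusted p = 0.00162).

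All 3 stalk genes fell in Treg. Rplp0 fell by 0.22, Rplp1 by 0.25 and Rplp2 by 0.45 (limma adjusted p = 0.0148, 0.01 and 0.0168). The Rplp0 call was lost without Srci1 replicate 3 (adjusted p = 0.0665), and the Rplp2 call without DMSO replicate 2 or Srci1 replicate 1 or 3 (adjusted p = 0.0768, 0.0683 and 0.0701). Rps27 went from 8549, 9122 and 9149 TPM to 7657, 7278 and 7444 TPM (-0.26, limma adjusted p = 0.00211). Rpl24 and Rps6 fell by 0.31 and 0.24 (limma adjusted p = 0.000935 and 0.00909), calls kept in every alternative.

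The 1 cytosolic member that rose was Rpl7l1 (chromosome 17, 46773907 to 46782672, minus strand). It had 102, 110.1 and 114 TPM with DMSO and 159, 134 and 140.3 TPM with Srci1, every treated library above every control (0.40 ± 0.088, limma adjusted p = 0.00436), also in every alternative. Its partner Rpl7, with 2119 ± 43.5 and 1808 ± 35.9 TPM, fell by 0.23 (limma adjusted p = 0.00176), though it was at 0.03 under quantile normalization.

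Of 78 mitochondrial genes in Treg, 10 rose and 1 fell with Srci1 (limma), a share below the 17.1% of all genes that rose. The median was 0.09, or -0.02 relative to all genes. Leaving out Srci1 replicate 1, 2 or 3 left 7, 6 and 7 calls, and median-of-ratios scaling gave 3 higher and 2 lower. Over all genes that scaling called 10.7% higher and 13.8% lower. Mrpl49 rose from 25.4, 25.2 and 28.2 TPM to 44.3, 41 and 38.1 TPM (0.63 ± 0.1, limma adjusted p = 0.000501) without overlap, as it did in TH17. Mrpl42 (chromosome 10, 95480805 to 95501940, minus strand) rose from 168, 141 and 146 TPM to 223, 213 and 204 TPM (0.49 ± 0.087, limma adjusted p = 0.001), and both calls were kept in every alternative. Mrpl27 rose by 0.47 (limma adjusted p = 0.00184), but with an adjusted p of 0.0539 under median-of-ratios scaling. The single fall was Mrps5, a small-subunit protein, from 95.3 ± 9.07 to 78.4 ± 6.21 TPM (-0.28, limma adjusted p = 0.0212). It was not called without DMSO replicate 1 or 3 or Srci1 replicate 1 (adjusted p = 0.0823, 0.0874 and 0.094) or with only the 2 Treg groups in the model (adjusted p = 0.0604).

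The mRNAs that the mitochondrial ribosome translates were higher with Srci1 in Treg. Of the 13 mitochondrially encoded mRNAs, 7 rose and 0 fell (median 0.66, or 0.54 relative to all genes). Over all genes tested 17.1% were higher and 10% lower with Srci1 in Treg (limma), or 10.7% and 13.8% under median-of-ratios scaling. mt-Nd2, for a subunit of respiratory complex I, rose from 1246 ± 43.9 to 2349 ± 136 TPM (0.91, limma adjusted p = 8.89e-06), mt-Nd1 by 0.70 and mt-Nd4 by 0.70 (limma adjusted p = 1.49e-05 and 0.000163). Under median-of-ratios scaling 5 rose and 0 fell. Of the 29 mitochondrial translation genes, 3 rose, a share below the 17.1% of all genes, and 0 fell, or 0 and 2 under median-of-ratios scaling. Of the 20 TOP and translation factor genes, 10 fell and 1 rose, among them Tpt1 by 0.33 and Rack1 by 0.39 (limma adjusted p = 0.000477 and 0.000528). Of 40 ribosome biogenesis genes, 1 rose and 0 fell, against 1 and 8 under median-of-ratios scaling. The sum of red blood cell markers was higher and that of CD8 T and NK markers lower in Srci1 Treg, and their part was not tested. Of 4 tested CD8 T and NK genes, 2 fell, led by Prf1 (-2.44, limma adjusted p = 4.9e-08). In the same list 1 gene, Cd8a, rose (0.51, limma adjusted p = 0.0324). Of 3 tested red blood cell genes only Hba-a1 was called (2.82, limma adjusted p = 1.3e-05).

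The Srci1 effect itself was compared between the cell types by an interaction term. The fall was larger in TH17 for 12 of 83 cytosolic genes and smaller for 0 (limma), against 2.95% and 11.3% of all genes tested with negative and positive differences. The cytosolic median of the difference was -0.09, or -0.21 relative to all genes. Median-of-ratios scaling (5.6% negative, 8.9% positive over all genes) gave 11 and 0, quantile normalization (6.46% and 8.59%) gave 9 and 4, and leaving out 1 library gave 7 to 14 calls, the lowest without Srci1 Treg replicate 1. The CD8 T and NK marker sum was higher with Srci1 in TH17 and lower in Treg, and its part was not tested. Rps27 fell by 0.65 in TH17 and by 0.26 in Treg, a difference of -0.39 ± 0.073 (limma adjusted p = 0.00278), which was -0.14 and not called under quantile normalization (adjusted p = 0.122). For Rpl36a the difference was -0.39 ± 0.078 (limma adjusted p = 0.00459), and for Rps27rt, with its uncertain split, -0.74 ± 0.082 (limma adjusted p = 5.38e-05). Both were called in every alternative. The largest difference the other way was that of Rps15a, 0.47 ± 0.17, which did not pass the test (limma adjusted p = 0.0904).

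Among 78 mitochondrial genes the interaction called 3 with a negative and 1 with a positive difference, against 2.95% and 11.3% of all genes (4 and 0 under median-of-ratios scaling). On that scaling 5.6% of all genes were called with a negative and 8.9% with a positive difference. Leaving out 1 library gave 1 to 5 calls, with 1 call without Srci1 TH17 replicate 3 or Srci1 Treg replicate 2 and 2 calls without Srci1 Treg replicate 1 or any 1 of the 3 DMSO Treg replicates. Mrpl24 fell in TH17 as given above, and in Treg it had 88.6, 95.7 and 96.4 TPM with DMSO and 97.9, 100.5 and 124 TPM with Srci1 (0.19, limma adjusted p = 0.113). The difference was -0.62 ± 0.12 (limma adjusted p = 0.00367), called in every alternative. Mrpl33 showed the same order, at -0.31 in TH17 and 0.20 in Treg (difference -0.51, limma adjusted p = 0.0215). That call was lost on leaving out any of 5 libraries, with adjusted p from 0.0503 without Srci1 Treg replicate 1 to 0.0572 without DMSO Treg replicate 2.

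**Figure D3:**
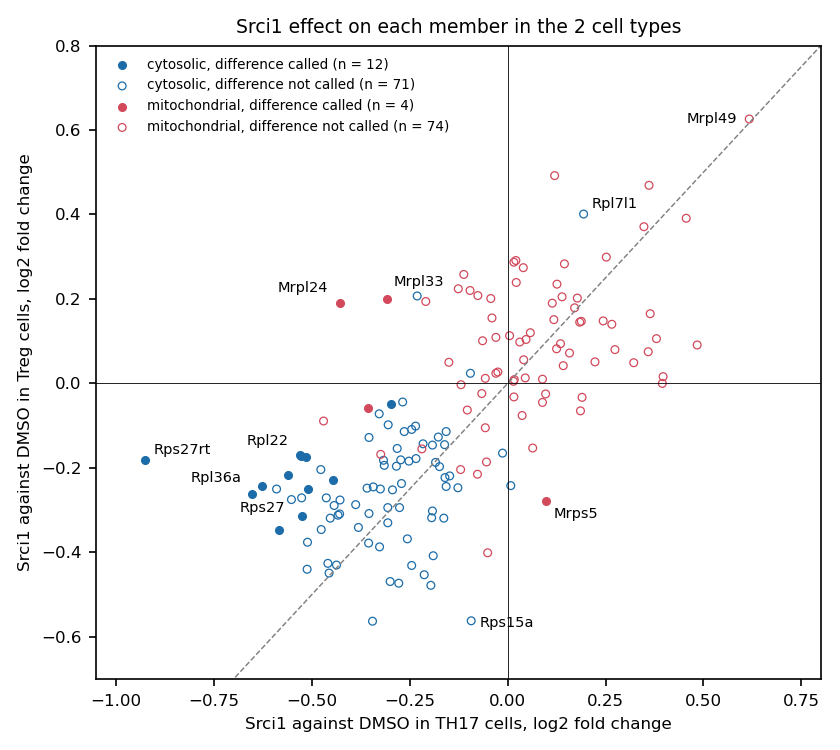
Log2 fold change with Srci1 in TH17 cells (horizontal) and in Treg cells (vertical) for the 161 members; the dashed line marks equal effects and filled points are members whose difference between cell types passed an adjusted p of 0.05. The 12 cytosolic members called lie above the line, and Mrpl24 and Mrpl33 lie in the upper left.

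Most cytosolic members were not called between STAT3 knockout and wild-type TH17 cells. Of 83 genes, 16 were higher and 7 lower (limma), against 30.9% higher and 18.9% lower of all genes tested, or 19.3% and 8.43% of the members. The median was 0.02, or -0.11 relative to all genes. Median-of-ratios scaling (25.7% higher and 25.4% lower over all genes) gave 1 higher and 11 lower, leaving out wild-type replicate 1 gave 10 and 12, and a model of these 2 groups alone 6 and 4. Small-subunit genes were 10 of the 16 higher calls, a share of that subunit's members near the 30.9% of all genes called higher. B cell, myeloid and CD8 T and NK marker sums were higher in these libraries, as given above, and their part was not tested.

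Rps29 and Rps15a, proteins of the small subunit, rose by 0.43 and 0.40 (limma adjusted p = 0.0131 and 0.0152). These calls were lost under median-of-ratios scaling (adjusted p = 0.18 and 0.0968) and without knockout replicate 3 (adjusted p = 0.064 and 0.0772). They were also lost for Rps29 without wild-type replicate 1 (adjusted p = 0.0568) or with only these 2 groups in the model (adjusted p = 0.0652) and for Rps15a without wild-type replicate 3 (adjusted p = 0.0618).

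On the lower side, Rpl38 (chromosome 11, 114668524 to 114672331, plus strand) fell from 3312, 3669 and 4338 TPM to 2933, 2743 and 3187 TPM (-0.35 ± 0.084, limma adjusted p = 0.00344). Rpl24 (chromosome 16, 55966275 to 55971435, plus strand) fell from 3716, 3745 and 4225 TPM to 3050.1, 3042 and 3352 TPM (-0.31 ± 0.054, limma adjusted p = 0.000333). Rps27l (chromosome 9, 66946086 to 66949516, plus strand) fell from 422, 412 and 409.5 TPM to 325, 336 and 351 TPM (-0.30 ± 0.056, limma adjusted p = 0.000523). The knockout libraries of these 3 genes lay below the wild-type libraries without overlap, and the calls were kept in every alternative. By contrast Rps27 itself was at 11885 ± 763 against 11868 ± 281 TPM (0.00, limma adjusted p = 0.999).

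**Figure D4:**
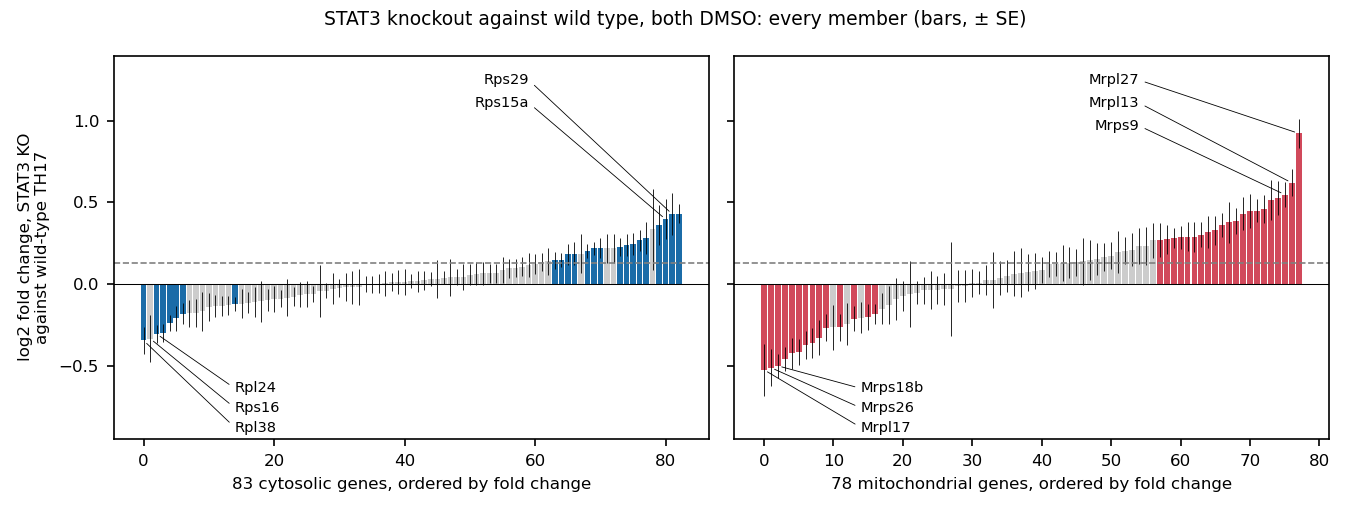
Log2 fold change (bars) with its SE for every cytosolic (left) and mitochondrial (right) member in STAT3 knockout against wild-type TH17 cells, ordered by size; coloured bars passed an adjusted p of 0.05, grey bars did not, and the dashed line is the all-gene median of 0.13. Most cytosolic members lie within a narrow band around 0, and the mitochondrial members spread from -0.53 to 0.92.

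Mitochondrial genes were called in both directions in the knockout, with 21 higher and 14 lower of 78, or 26.9% and 17.9%, near the 30.9% and 18.9% of all genes (limma; median 0.07, or -0.05 relative to all genes; 15 and 7 with only these 2 groups in the model; 8 and 17 under median-of-ratios scaling). Over all genes median-of-ratios scaling called 25.7% higher and 25.4% lower. Mrpl27 (chromosome 11, 94653767 to 94660089, plus strand), a large-subunit protein at the peptidyl transferase centre, had 46.9, 50.2 and 55.3 TPM in wild-type and 102, 92 and 96.8 TPM in knockout libraries. No libraries overlapped (0.92 ± 0.091, limma adjusted p = 1.34e-06). Mrpl13 rose from 45.1, 49.7 and 57 TPM to 74.4, 74.2 and 85.7 TPM (0.62, limma adjusted p = 2.39e-05) and Mrps9 from 48.6, 47.8 and 47.6 TPM to 69.4, 69 and 73.6 TPM (0.55, limma adjusted p = 3.71e-05). Mrpl49 and Mrps18c rose by 0.43 and 0.46 (limma adjusted p = 0.00294 and 0.000553).

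Members of the same mitochondrial family went opposite ways. Mrps18b (chromosome 17, 35910379 to 35916389, minus strand), 1 of 3 paralogs of bacterial S18, fell from 84.1, 89.1 and 89.5 TPM to 61.3, 56.9 and 66.8 TPM (-0.50 ± 0.073, limma adjusted p = 5.88e-05), while Mrps18c rose and Mrps18a was at 61.7 ± 6.28 against 56.5 ± 8.11 TPM (0.13, limma adjusted p = 0.287). Mrps26 and Mrpl57 fell by 0.51 and 0.46 (limma adjusted p = 0.00185 and 0.000134). The calls of Mrpl27, Mrpl13, Mrps9, Mrpl49, Mrps18b, Mrps18c, Mrps26 and Mrpl57 were kept in every alternative. Mrpl17 had the largest fall (-0.53, limma adjusted p = 0.0141), which was not called without knockout replicate 2 (-0.37, adjusted p = 0.0738) or wild-type replicate 2 (-0.46, adjusted p = 0.0549).

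Genes that build ribosomes were lower in the knockout. Of 40 ribosome biogenesis genes, 26 fell and 0 rose (median -0.45, or -0.58 relative to all genes; 35 and 0 under median-of-ratios scaling). Over all genes tested 18.9% were lower and 30.9% higher in the knockout (limma), or 25.4% and 25.7% under median-of-ratios scaling. Bop1, which processes large-subunit rRNA, fell from 105 ± 1.56 to 53.6 ± 4.06 TPM (-0.96, limma adjusted p = 9.74e-09), Rrp12, an export factor of pre-ribosomes, from 34.2 ± 3.37 to 14.7 ± 0.976 TPM (-1.17, limma adjusted p = 7e-08) and Nop56, a core box C/D protein, from 350.5 ± 30.9 to 206 ± 13.1 TPM (-0.76, limma adjusted p = 2.74e-07). Of 19 tested regulators of ribosomal protein expression, 6 rose, near the 30.9% of all genes, and 7 fell, or 4 and 7 under median-of-ratios scaling. The MYC antagonist Mxd4 rose from 18.4 ± 1.63 to 96.6 ± 3.97 TPM (2.33, limma adjusted p = 3.95e-11), Max, the MYC partner, rose from 90 ± 2.13 to 252 ± 13.3 TPM (1.47, limma adjusted p = 1.91e-08), and Ddit4, an mTORC1 inhibitor, fell from 219.9 ± 18 to 79.2 ± 3.68 TPM (-1.46, limma adjusted p = 4.67e-10). The TOP and translation factor genes gave 8 higher and 3 lower calls of 20, beside the 30.9% and 18.9% of all genes, or 3 and 4 under median-of-ratios scaling.

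Treg cells were compared with TH17 cells under DMSO. Cytosolic members were lower in Treg for 30 of 83 genes and higher for 1 (limma), against 12.5% lower and 32.3% higher of all genes tested. Their median was -0.15, or -0.33 relative to all genes. The CD8 T and NK and the red blood cell marker sums given above were higher in DMSO Treg than in DMSO TH17 without overlap, and their part was not tested. Of 4 tested CD8 T and NK genes, 2 were higher in Treg, led by Prf1 (3.27, limma adjusted p = 4.97e-10). In the same list 1 gene, Cd8b1, was lower (-0.63, limma adjusted p = 0.00386). Under median-of-ratios scaling (21.9% of all genes lower, 21.1% higher) the counts were 58 lower and 0 higher, and under quantile normalization 16 and 5 (21.4% and 21.2% of all genes). Rps21 went from 3101, 3346 and 3601 TPM in TH17 to 2586, 2445 and 2404 TPM in Treg without overlap (-0.43 ± 0.066, limma adjusted p = 0.000122). Rps27 was lower, at -0.41 (limma adjusted p = 2.21e-05) and Rpl24, at -0.38 (limma adjusted p = 7.94e-05), and these 3 calls were kept in every alternative. The 1 gene higher in Treg was Rps15a (0.32, limma adjusted p = 0.0494), a call lost in 9 of the 14 alternatives, such as median-of-ratios scaling (adjusted p = 0.562), the replicate block (adjusted p = 0.0721) and each leaving-out of 1 library except Treg replicate 3.

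Mitochondrial members were higher in Treg for 23 of 78 genes and lower for 4, or 29.5% and 5.13% against 32.3% and 12.5% of all genes (limma; median 0.12, or -0.07 relative to all genes), and for 4 and 11 under median-of-ratios scaling. Over all genes median-of-ratios scaling called 21.1% higher and 21.9% lower. Mrpl39 (chromosome 16, 84717576 to 84735742, minus strand) had 21.6, 21.2 and 19.6 TPM in TH17 and 35.4, 38.6 and 35 TPM in Treg (0.77 ± 0.088, limma adjusted p = 8.66e-06). Mrpl13 (chromosome 15, 55534094 to 55557748, minus strand) had 82.9, 82.3 and 81.4 TPM in Treg, above all TH17 DMSO libraries (0.69 ± 0.082, limma adjusted p = 1.17e-05), and Mrps31 was higher by 0.56 (limma adjusted p = 0.000596). Mrpl24, Mrpl41 and Mrpl33 were lower in Treg, at -0.48, -0.40 and -0.36 (limma adjusted p = 0.000473, 0.00479 and 0.00686). All 6 calls were kept in every alternative. Of 29 mitochondrial translation genes, 10 were higher and 1 lower, beside the 32.3% and 12.5% of all genes, or 1 and 4 under median-of-ratios scaling.

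Srci1-treated wild-type TH17 cells were also set against knockout TH17 cells. Of 83 cytosolic genes, 66 were lower with Srci1 and 2 higher (limma), against 18.4% lower and 30.6% higher of all genes tested, with a median of -0.34, or -0.46 relative to all genes (69 and 0 under median-of-ratios scaling, where 24.5% and 24.6% of all genes were called, and 43 and 1 under quantile normalization, where these were 24.6% and 25.3%). Rpl37a, a zinc-binding large-subunit protein, was lower, at -0.68 ± 0.089 (limma adjusted p = 2.32e-05). Rplp1 went from 13477, 11660.2 and 13372 TPM in the knockout to the Srci1 values above (-0.63, limma adjusted p = 1.76e-06). Rpl7l1 and Rps27l were the 2 genes higher with Srci1 (0.31 and 0.20, limma adjusted p = 0.00927 and 0.00817), but not under median-of-ratios scaling (0.18 and 0.07). The CD8 T and NK, B cell and myeloid marker sums were higher and the red blood cell sum lower in the knockout libraries, and their part was not tested. Mitochondrial members gave 14 higher and 15 lower of 78, beside the 30.6% and 18.4% of all genes (6 and 21 under median-of-ratios scaling), and the balance turned without knockout replicate 1 (26 calls) or Srci1 replicate 1 (25 calls). Mrpl53 was higher by 0.68, Mrps18b by 0.52 and Mrpl57 by 0.50, while Mrpl24 and Mrpl27 were lower, at -0.59 and -0.56 (limma adjusted p = 2.42e-05, 4.98e-05, 6.85e-05, 5.66e-05 and 0.000162). Ribosome biogenesis genes were higher with Srci1 for 23 of 40 and lower for 1, or 18 and 4 under median-of-ratios scaling.

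**Figure D5:**
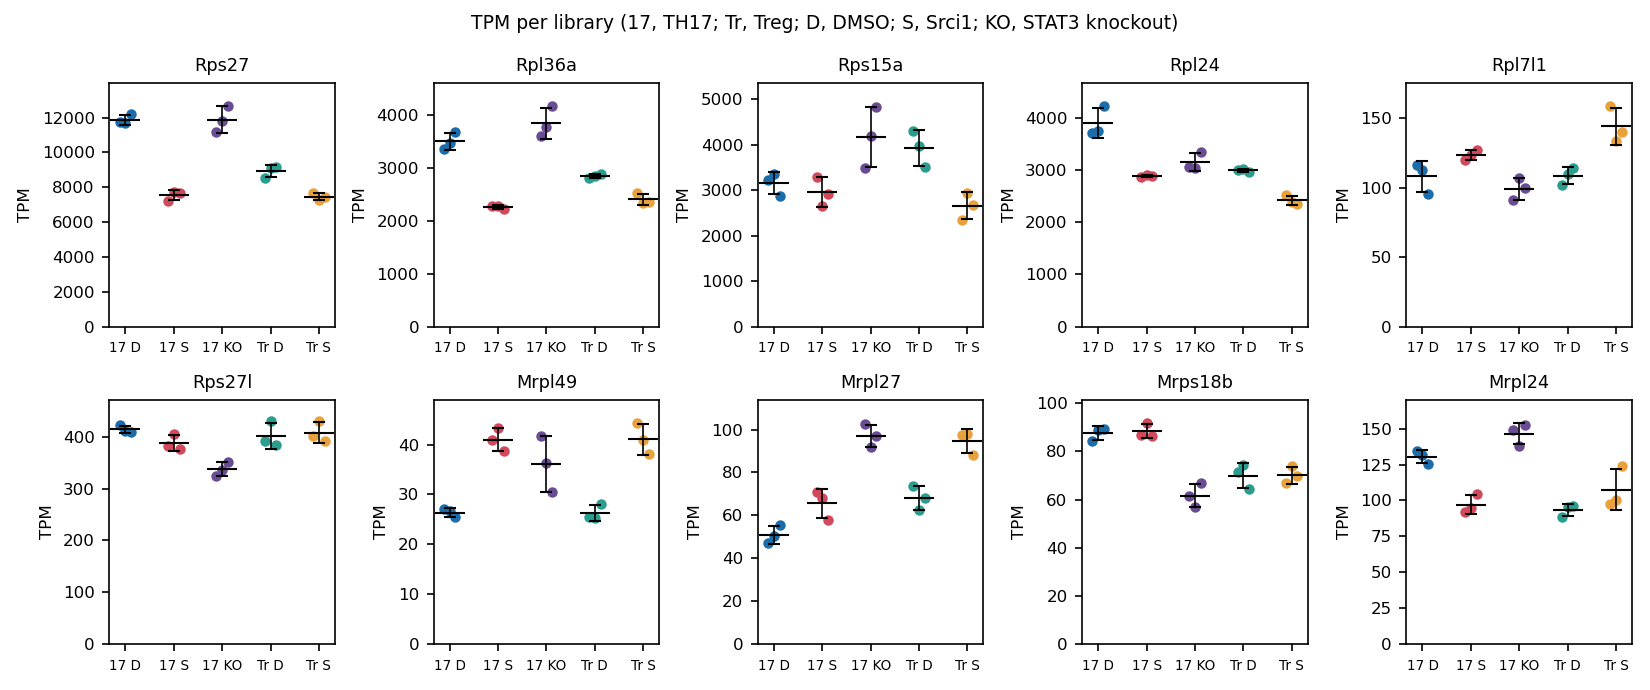
TPM of 10 members in each library (points) with the group mean (horizontal line) and SD (error bar), n = 3 per group, on axes that start at 0. Rps27 and Rpl36a are lower with Srci1 in both cell types, Rpl24 is highest in DMSO TH17, Mrpl27 is high in the knockout and in Srci1 Treg, whose libraries overlap, Rpl7l1 is highest in Srci1 Treg, and Mrpl49 is near 26 TPM in both DMSO groups and near 41 TPM in both Srci1 groups.

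The stoichiometry within the cytosolic set was examined with TPM scaled to the summed cytosolic TPM of each library, a scaling chosen after seeing the data. With Srci1 in TH17, 17 genes were then higher and 17 lower within the set (limma over all 12800 genes, of which 61.9% were higher and 2.65% lower on this scale), so members did not fall by equal amounts. Rps27 fell by 0.30 beyond the set (adjusted p = 0.000243), Rpl36a by 0.28 (adjusted p = 0.000377) and Rpl22 by 0.18 (adjusted p = 0.0271). Rplp0 rose by 0.20 (adjusted p = 0.000211), Rps2 by 0.36 (adjusted p = 8.59e-05) and Rpl7l1 by 0.54 (adjusted p = 0.0012) on this scale. With Srci1 in Treg, 9 were higher and 6 lower (42.5% and 5.54% of all genes), led by Rpl7l1 at 0.67 (adjusted p = 0.000596), and leaving out DMSO Treg replicate 2 or Srci1 Treg replicate 1 or 3 gave 9 calls in place of 15. In the knockout 15 were higher and 14 lower (25.4% and 17.6% of all genes), with Rpl38 at -0.38 (adjusted p = 2.6e-05). Treg against TH17 gave 9 higher and 12 lower (41.4% and 7.76% of all genes), the difference of Srci1 effects 2 and 4 (10.1% and 1.6%) and Srci1 against the knockout 24 and 16 (52.8% and 8.94%). For Treg against TH17, leaving out DMSO Treg replicate 2 gave 13 calls in place of 21. Rps2 was named after its values were seen.

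Counts and medians were close for members with and without the pyrimidine run at the start. The run was sought only at the annotated RefSeq start of each gene, so a window without it does not show that the mRNA lacks a TOP tract. This split therefore cannot decide whether TOP mRNAs changed unlike other mRNAs. With Srci1 in TH17, 23 of 31 cytosolic genes with a run and 22 of 32 without one were lower, with medians of -0.30 and -0.31. In Treg the counts were 23 of 31 and 22 of 32, with medians of -0.24 and -0.25. Over all genes tested, 7.08% were lower with Srci1 in TH17 and 10% in Treg (limma). Rps27 and Rpl38 with a run and Rpl36a and Rpl24 without one, whose start windows are printed above, all fell in both cell types. In the knockout the medians were 0 with a run and 0.01 without.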

How the data were processed

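Poly(A) RNA was sequenced from 15 libraries, per the labels' protocols. The submitters' processing notes name STAR 2.7.9a, RSEM 1.3.3 and GRCm38. The authors deposited TPM per gene, which keeps no read depth, so no counting error or detection limit can be given and the number of libraries limits the precision.

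Groups came from the sample labels. Genes were named by Ensembl ID through GENCODE M21. log2(TPM + 1) of 12800 genes, those that reached 1 TPM in 3 or more libraries, was fitted with limma 3.58.1 in R 4.3.3 (5 group means, trend, 10 residual degrees of freedom), with Benjamini-Hochberg adjustment over all of them. The script was tested on simulated data for Srci1 against DMSO in TH17 over 12800 genes, where it called 81% of genes changed by 1 and 36% of those changed by 0.5 (log2). In that simulation few genes changed and the noise was independent between genes and libraries, unlike in these data. Its rates are therefore not the power of the tests reported here.

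Members and lists were chosen with earlier results of these data known. Named members were fixed by role or were, per comparison and class, up to 3 called genes with the largest change in each direction, a group mean of at least 5 TPM and no overlap between libraries (overlap was allowed for the difference of effects). List genes were up to 3 with the smallest adjusted p. Alternatives were the pseudocount, the filter, the scaling, the groups in the model, a replicate block and each library left out. Scaling to the cytosolic sum was chosen after seeing the data. Promoter windows are from RefSeq (GRCm38.p6). Values of some genes are not reported here.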

Additional observations from a re-analysis of the deposited data

Results flagged for a closer look

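The effect of Srci1 differed between TH17 and Treg cells, by the interaction term of the limma model, for these 9 named members. Rps27rt, whose reads cannot be told apart from Rps27 in the coding part, differed by -0.744 (log2, TH17 minus Treg; limma adjusted p = 5.38e-05), Rps27 by -0.391 and Rpl36a by -0.385. Rpl22, at -0.53 in TH17 and -0.17 in Treg, differed by -0.360, and Rpl7 by -0.216. Among mitochondrial members, Mrpl24 differed by -0.618, Mrpl33 by -0.508 and Mrpl30 by -0.297. Mrps5 was the only mitochondrial gene called with a positive difference, 0.374 (limma adjusted p = 0.0433), at 0.10 in TH17 and -0.28 in Treg. Under all alternatives run, the calls of Mrpl24, Rps27rt and Rpl36a were kept, and each of the other 6 was lost under at least 1.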

How the results depend on the processing

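Quantile normalization called 35 cytosolic genes for Srci1 in TH17, 36 in Treg and 44 against the knockout, and 16, 7 and 16 mitochondrial genes for Srci1 in TH17 (balance turned), Srci1 in Treg and Treg against TH17. Median-of-ratios scaling called 12 cytosolic genes in the knockout (balance turned) and 58 in Treg against TH17, and 17, 25, 5 and 15 mitochondrial genes for Srci1 in TH17, the knockout, Srci1 in Treg and Treg against TH17, with the balance turned in all but Srci1 in Treg. Rescaling without cytosolic ribosomal protein and mitochondrially encoded genes called 47 cytosolic genes in Treg against TH17 and 13 mitochondrial genes for Srci1 in TH17 (balance turned). With only the compared groups the knockout gave 10 cytosolic and 22 mitochondrial calls, and with no filter the mitochondrial difference of effects gave 2. The cause of these changes was not tested. As shares of nuclear protein-coding TPM, the cytosolic set was 34.41, 33.27, 26.26, 29.31 and 24.99% and the mitochondrial set 0.7414, 0.698, 0.7092, 0.7131 and 0.7827% (knockout, DMSO TH17, Srci1 TH17, DMSO Treg, Srci1 Treg).

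Leaving out 1 library gave 51 to 72, 17 to 25, 40 to 51, 24 to 46, 7 to 14 and 59 to 71 cytosolic calls for Srci1 in TH17, the knockout, Srci1 in Treg, Treg against TH17, the difference of effects and Srci1 against the knockout. The mitochondrial ranges in this order were 15 to 20, 29 to 34, 6 to 10, 21 to 29, 1 to 5 and 23 to 28, and those on the cytosolic sum 25 to 30, 20 to 29, 9 to 15, 13 to 24, 4 to 9 and 30 to 42. The balance turned in cytosolic genes of the knockout without DMSO TH17 replicate 1 (22 calls) and in mitochondrial genes of Srci1 against the knockout without knockout replicate 1 (26) or Srci1 TH17 replicate 1 (25). Same-numbered libraries correlated at -0.171 to 0.128 in their deviations, and differently numbered libraries at -0.301 to 0.254. These values gave no sign of pairing by number, but so few libraries cannot exclude it. A replicate block gave 61, 23, 55, 31, 12 and 66 cytosolic and 21, 35, 11, 28, 3 and 27 mitochondrial calls.

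Single values that changed sign under median-of-ratios scaling were Mrpl13 (-0.023) and Mrps22 (-0.011) for Srci1 in TH17 and Rpl7l1 (-0.204) for Treg against TH17. Under quantile normalization they were Mrps22 (-0.003), Rpl11 (0.018), Rpl3 (0.003) and Rplp0 (0.119) for Srci1 in TH17, Rpl7 (0.028) and Rpl37a (0.007) for Srci1 in Treg and Rplp0 (0.073) for Srci1 against the knockout. TPM hold no depth, so low-level members such as Rpl39l could not be given a counting error.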
